A study of Homo sapiens with 66 samples.

Results

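A set of 9 genes of the HLA class I presentation pathway were followed through the RNA-seq libraries of THP-1, a human monocytic leukemia line. They were taken by Ensembl identifier from the gene count tables of 2 studies and were HLA-B, HLA-C, HLA-E, HLA-F, B2M, TAP1, TAP2, PSMB8 and PSMB9, so 9 of 57820 genes. In study 1, a STING-deficient, Cas9-transgenic clone was nucleofected with gRNAs against HNRNPC (hnRNPC), against ADAR, against both (ADAR+hnRNPC), against GFP, or with nontarget gRNA alone (CTRL), and was harvested on days 3, 4 and 5. A further group of CTRL cells had IFN-α for 24 h before harvest on day 4. These 16 groups of 3 replicates, 48 libraries in all, held whole-cell RNA. Study 2 used a wild-type Cas9-transgenic clone and different gRNAs against HNRNPC and ADAR, harvested on day 4. Its 18 libraries, 9 groups of 2 replicates, were of total and of cytosolic (digitonin-soluble) RNA from CTRL, hnRNPC, ADAR and ADAR+hnRNPC cells, and of digitonin-insoluble RNA, enriched in nuclei and mitochondria and called nuclear here, from hnRNPC cells. Singly targeted cells received nontarget gRNA in place of the other gRNA. Each study rests on 1 clone, and no selection of edited cells after nucleofection is given in the sources used here.

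Nearly all nucleated cells show fragments of their own proteins on HLA class I molecules, where CD8 T cells and natural killer cells read them. The immunoproteasome, in which PSMB8 and PSMB9 replace constitutive catalytic subunits, cuts proteins into peptides, the TAP1-TAP2 transporter moves the peptides into the endoplasmic reticulum (ER), and there they are loaded onto a heavy chain (HLA-B, HLA-C, HLA-E or HLA-F) bound to its light chain B2M. Interferons raise the transcription of the whole pathway through STAT and IRF factors that bind interferon-stimulated response elements (ISREs) and through the transactivator NLRC5.

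Depth was 95107690 to 152829008 gene counts per library in study 1 and 49666958 to 73873756 in study 2. HNRNPC mRNA was at 725 to 847 CPM (counts per megacount of the scaled library) in CTRL and at 314 to 382 CPM in hnRNPC cells of study 1. ADAR mRNA gave little check of the ADAR label in study 1, with 364 to 421 CPM in CTRL and 349 to 395 CPM in ADAR cells. In total RNA of study 2 it was 843 and 961 CPM in CTRL and 562 and 433 CPM in ADAR cells. All 9 monocytic markers reached 1 CPM in some library of either study, whereas T cell, epithelial and erythroid markers stayed below 1 CPM throughout. Of 3 B cell markers, 1 reached it.

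Of the members, 8 lie in the major histocompatibility complex (MHC) on chromosome 6 and B2M on chromosome 15 (GRCh37 coordinates follow). TAP1 spans chr6:32812986-32821593 on the minus strand, wholly inside the interval of PSMB9 at chr6:32811913-32827628 on the plus strand, whose first bases also overlap PSMB8 at chr6:32808494-32812456. TAP2 follows at chr6:32789610-32806516. The heavy chains lie apart, with HLA-F at chr6:29690552-29706305, HLA-E at chr6:30457286-30461971, HLA-C at chr6:31236526-31239907 and HLA-B at chr6:31321649-31334844, and B2M is at chr15:45003556-45011049. A limit applies to the chromosome 6 members. The alignment genome also held alternate MHC haplotypes, and only uniquely mapped reads were counted. Over the set of 7 such haplotypes of GRCh37, 1955 editing sites were listed in study 1 and 661 in study 2, not counted for each haplotype. A read that matches both the chromosome and a haplotype was thus not counted, so counts of these 8 genes are lower limits and their levels cannot be set against that of B2M. How far this lowered them was not tested. The strand setting of the counting is not given in the sources used here, so reads where TAP1, PSMB8 and PSMB9 overlap are uncertain too.

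Promoter sequences of 5 members are shown because the ISRE is the element through which IFN-α acts. Of these, TAP1, B2M, HLA-F and PSMB8 were higher with IFN-α below. PSMB9 held no ISRE-like match within the 300 bases searched. It was not called, but its log2 fold change of 0.96 ± 0.579 (SE) was not below those of PSMB8 (0.80) and B2M (0.91). TAP2, not shown, held a match and was not called with IFN-α in a fit without a filter on low counts. It had only 4, 0 and 0 counts with IFN-α. Whether the matches bear on the responses was not tested. The sequences are from RefSeq (GRCh38.p14), in which 8 of 9 members were found and HLA-E was not. Each run is 170 bases before the start site and the first 20 from it, on the strand of the gene. Capitals mark matches to motifs searched on both strands: ISRE-like (a pair of GAAA with any 2 bases between), GAS-like TTCNNNGAA, kB-like GGGNATTCC, the CRE core TGACG, and CCAAT.
TAP1, chr6:32853685-32853874, minus strand: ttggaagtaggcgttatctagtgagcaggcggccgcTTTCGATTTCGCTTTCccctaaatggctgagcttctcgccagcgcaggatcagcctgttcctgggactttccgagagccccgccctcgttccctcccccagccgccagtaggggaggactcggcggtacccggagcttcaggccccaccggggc
B2M, chr15:44711347-44711536, plus strand: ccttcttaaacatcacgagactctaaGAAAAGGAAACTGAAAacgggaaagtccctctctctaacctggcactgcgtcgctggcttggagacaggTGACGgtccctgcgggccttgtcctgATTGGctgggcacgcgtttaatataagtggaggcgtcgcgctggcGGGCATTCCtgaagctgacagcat
HLA-F, chr6:29723264-29723453, plus strand: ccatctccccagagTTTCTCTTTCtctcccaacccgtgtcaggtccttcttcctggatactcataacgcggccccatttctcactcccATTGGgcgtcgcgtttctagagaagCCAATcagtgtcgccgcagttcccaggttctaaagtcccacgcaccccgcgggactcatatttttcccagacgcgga
PSMB8, chr6:32844028-32844217, minus strand: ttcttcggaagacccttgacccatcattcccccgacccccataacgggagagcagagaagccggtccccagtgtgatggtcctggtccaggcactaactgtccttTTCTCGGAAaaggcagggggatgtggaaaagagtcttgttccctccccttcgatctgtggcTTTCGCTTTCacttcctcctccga
PSMB9, chr6:32854022-32854211, plus strand: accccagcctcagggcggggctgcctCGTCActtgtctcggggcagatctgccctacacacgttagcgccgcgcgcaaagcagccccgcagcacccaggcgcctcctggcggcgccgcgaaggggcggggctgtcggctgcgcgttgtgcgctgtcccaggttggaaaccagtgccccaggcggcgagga

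An ISRE-like match was found in the 300-base promoters of 5 of the 8 members, against 3.57% of all 35116 promoters of the table. For each motif, a member was counted if any of its listed promoters matched, whereas the shares are of single promoters. TAP1 and PSMB8 each had another listed promoter, not the one shown, without an ISRE-like match. In TAP1 and B2M, 2 such matches overlapped each other, starting 134 and 128 bases before the start site of TAP1 and 144 and 138 bases before that of B2M. TAP2 held 1 match at 58 bases, HLA-F 1 at 156 bases, and PSMB8 1 at 4 bases before its second listed start. PSMB9 held none in its promoter, chr6:32853942-32854241, which overlaps the upstream end of the TAP1 promoter, chr6:32853655-32853954. The matches of TAP1 thus also lie upstream of the PSMB9 start, beyond the bases searched for PSMB9. GAS-like matches were found in 2 of 8 members (7.66% of all promoters), kB-like in 2 (0.82%), the CRE core in 6 (24.6%) and CCAAT in 6 (34.6%). Promoters of genes in 1 family share sequence, so these counts are not independent, and a match is a run of letters and not a binding site.

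Levels are given as counted, and for the chromosome 6 members they are lower limits, from which no order of the mRNAs is read. Per kilobase of transcript, CTRL cells of day 4 had 1166 ± 115 CPM per kb (SD, n = 3) of B2M and 115 ± 5.56 CPM per kb of PSMB8. Counts gave 14.7 ± 0.282 CPM per kb for TAP1, 13.2 ± 3.58 CPM per kb for PSMB9 and 12.2 ± 1.2 CPM per kb for HLA-E. HLA-F had 0.484 ± 0.16 CPM per kb, and the values of HLA-B, HLA-C and TAP2 were smaller. In study 1, HLA-B had 3 to 73 counts per library, HLA-C 0 to 27, TAP2 0 to 8 and HLA-F 26 to 391. These 4 genes did not pass the filter on low values (an average log2 CPM of 0.5), so 5 of 9 members, HLA-E, B2M, TAP1, PSMB8 and PSMB9, were tested in both studies. Whether low expression or lost reads keeps HLA-B, HLA-C and TAP2 near 0 was not tested. Introns of TAP2 held more reads than its exons. The intron at chr6:32803137-32803419 had a mean of 29.5 counts per library of study 1, and that at chr6:32800602-32802930 had 20.4. The highest such means were 2.73 in HLA-B and 0.0833 in HLA-C.

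PSMB9 was unstable between replicates of study 1. Its 3 libraries of GFP cells on day 3 had 6.27, 5.49 and 21.6 CPM and those of hnRNPC cells on the same day 4.07, 16.6 and 4.44 CPM. Its coefficient of biological variation was 48.3%, above that of 99.7% of the genes tested, against 6.47% for B2M, 6.63% for PSMB8, 9.32% for TAP1 and 10.5% for HLA-E (median of all genes, 7.4%). In study 2 it was 12.1% for PSMB9, against a median of 9.95%.

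**Figure D1:**
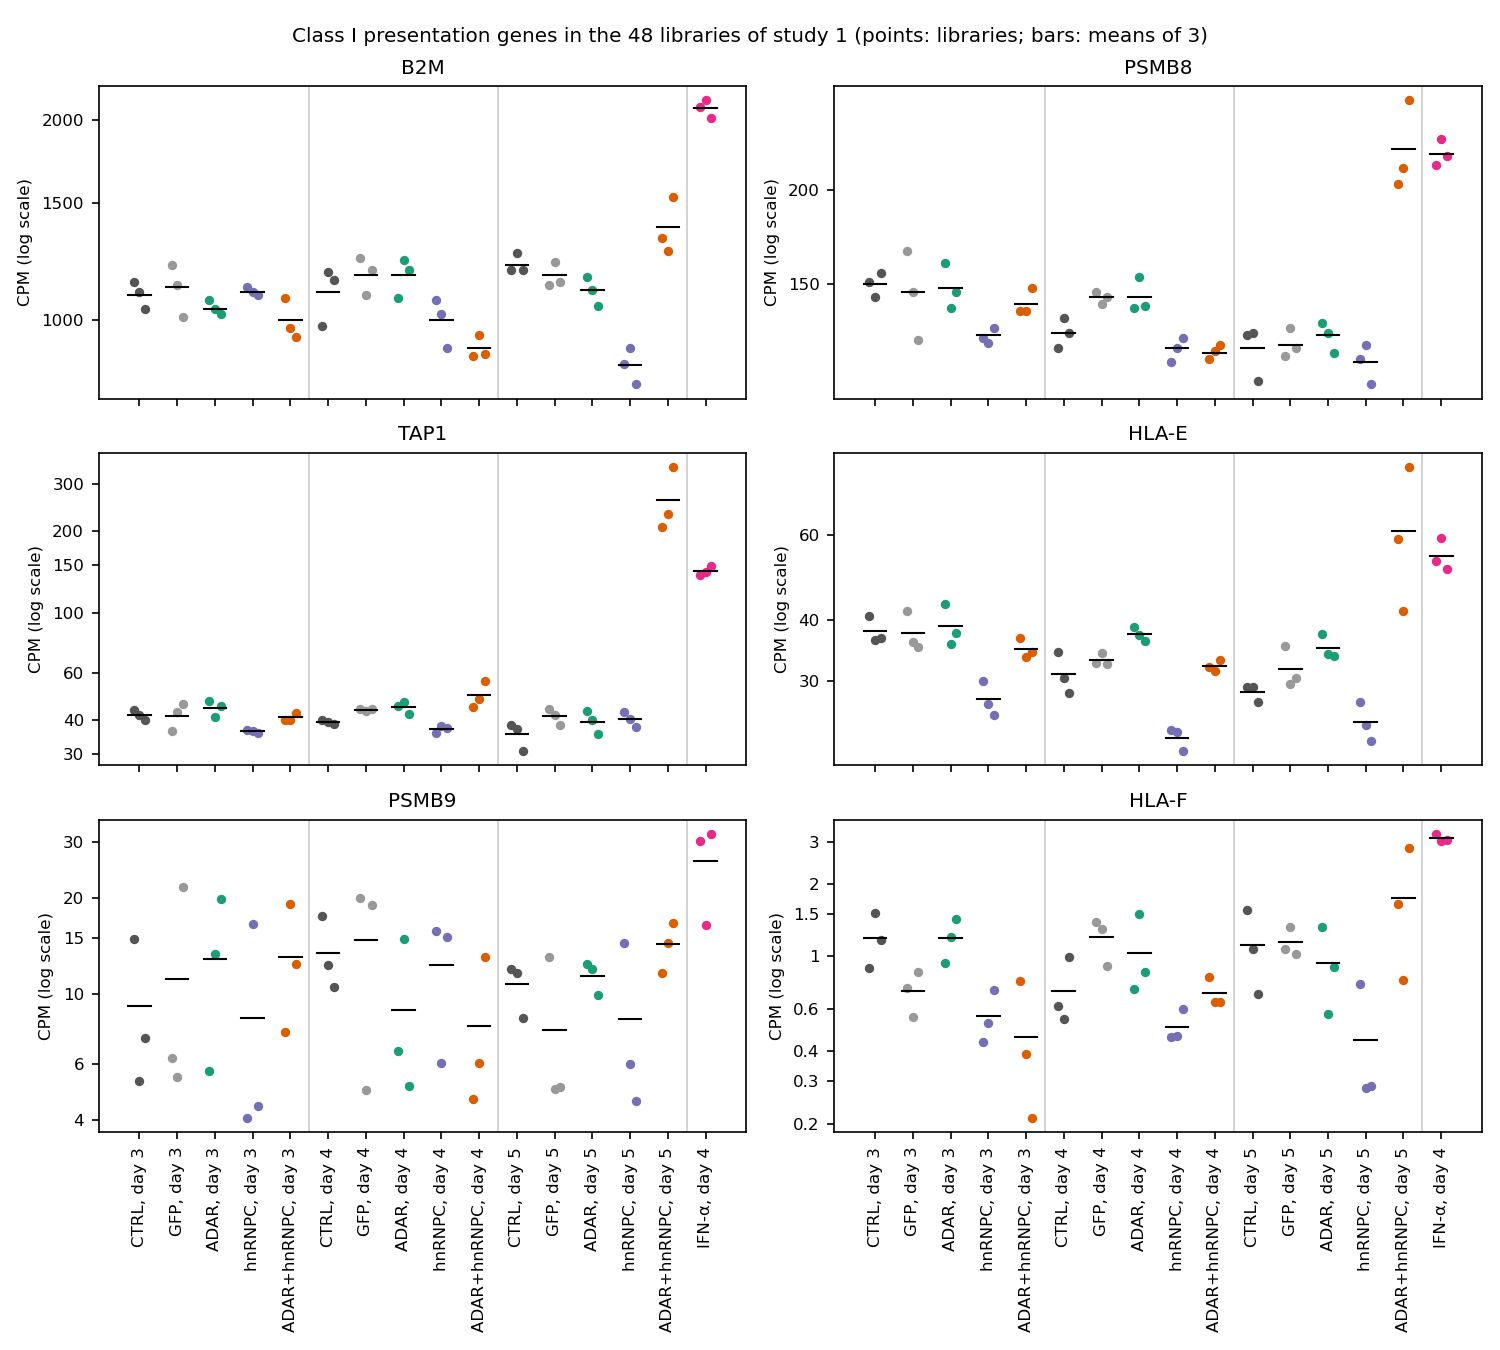
Levels of 6 members in the 48 libraries of study 1, in CPM on log axes that differ between panels. Each point is 1 library and each bar the mean of 3, grouped by day and gRNA. B2M, PSMB8, TAP1 and HLA-F were highest after IFN-α or in ADAR+hnRNPC cells of day 5, whereas PSMB9 scattered within groups.

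Treatment with IFN-α asks how far the pathway answers the cytokine itself. TAP1 rose 3.61-fold and was the only member called, that is, past a 2-fold change in either direction at an adjusted p of at most 0.05 (edgeR quasi-likelihood test with Benjamini-Hochberg adjustment over all genes tested, named edgeR adjusted p below). B2M, PSMB8 and HLA-E were 1.74- to 1.88-fold higher. Fewer cells that express a gene and less RNA per cell cannot be told apart in such bulk libraries. Replicates are numbered within a group by the labels, and the study describes them as independent of each other.

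TAP1 had 40.2, 39.5 and 38.7 CPM in CTRL cells of day 4 and 138, 141 and 149 CPM with IFN-α. These groups were far apart, with a log2 fold change of 1.85 ± 0.111 (SE) and an edgeR adjusted p of 2.26e-16. B2M went from 980, 1180 and 1150 CPM to 2090, 2140 and 2010 CPM, again without overlap (log2 fold change 0.91 ± 0.0737, edgeR adjusted p = 1.54e-12). For PSMB8, the catalytic subunit also called LMP7, the 3 CTRL libraries lay between 123 and 135 CPM and the 3 with IFN-α at 216, 234 and 222 CPM. Its log2 fold change was 0.80 ± 0.0761 (edgeR adjusted p = 1.57e-10). HLA-E, the heavy chain read by the NKG2A receptor of natural killer cells, had 34.4, 30.4 and 28.3 CPM and then 52.9, 59 and 51.1 CPM, a log2 fold change of 0.81 ± 0.123 (edgeR adjusted p = 5.47e-06). PSMB9 had 17.5, 12.3 and 10.5 CPM in CTRL and 30.1, 16.4 and 31.8 CPM with IFN-α, so that 1 treated library lay within the CTRL range. The edgeR adjusted p of PSMB9 was 0.259 at a log2 fold change of 0.96 ± 0.579. In counts, 1 of 5 members was called higher, where 1.19% of all genes were, and 4 of 5 were higher on the adjusted p alone, where 10.9% of all genes were.

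HLA-F, a nonclassical heavy chain, moved with IFN-α below the filter. It had 67, 82 and 150 counts in CTRL cells of day 4 (0.617, 0.546 and 0.987 CPM) and 341, 317 and 391 counts with IFN-α (3.23, 3.02 and 3.04 CPM), and the groups did not overlap. In the fit without a filter its log2 fold change was 2.11 (edgeR adjusted p = 2.87e-08). For some tested members, given below, that fit had a far smaller edgeR adjusted p than the main fit at the same log2 value. Why was not tested, and calls that rest on that fit alone are uncertain throughout. HLA-B, HLA-C and TAP2 were not called in that fit (edgeR adjusted p of 0.82 to 1). The values of HLA-B, a classical heavy chain, were 37, 4 and 10 counts in CTRL and 45, 5 and 6 with IFN-α, an overlap that leaves a change undetectable at so few counts.

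Double targeting asks whether loss of both proteins raises the pathway without added interferon. On day 5, TAP1 rose 7.41-fold and HLA-E 2.14-fold, PSMB8 was 1.85-fold and B2M 1.13-fold higher, and PSMB9 did not pass. TAP1 had 38.5, 37 and 30.7 CPM in CTRL and 208, 232 and 346 CPM in ADAR+hnRNPC cells, with a log2 fold change of 2.89 ± 0.115 (edgeR adjusted p = 1.21e-22). HLA-E had 29.2, 29.1 and 27.1 CPM in CTRL and 58.7, 41.8 and 82.7 CPM in ADAR+hnRNPC cells (log2 fold change 1.10 ± 0.124, edgeR adjusted p = 4.58e-10). These groups did not overlap, but the library with 82.7 CPM, replicate 3, was also the highest of its group in TAP1, PSMB8, B2M, PSMB9 and HLA-F. Without it, the log2 fold change of HLA-E was 0.79, below the 2-fold threshold, and with GFP in place of CTRL cells it was 0.94.

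PSMB8 had 128, 129 and 111 CPM in CTRL of day 5 and 204, 214 and 264 CPM in ADAR+hnRNPC cells, with a log2 fold change of 0.89 ± 0.0762 (edgeR adjusted p = 4.71e-13). For B2M, 1190, 1260 and 1190 CPM stood against 1330, 1270 and 1530 CPM. These groups lay close without overlapping, and the log2 fold change was 0.18 ± 0.0731 (edgeR adjusted p = 0.0229). PSMB9 had 12, 11.6 and 8.39 CPM against 11.6, 14.4 and 16.7 CPM and overlapped (log2 fold change 0.42 ± 0.580, edgeR adjusted p = 0.521). In counts, HLA-E and TAP1, or 2 of 5 members, were called higher, where 10.8% of all genes were, and 4 of 5 were higher on the adjusted p alone, where 40.2% of all genes were. HLA-F, with 1.56, 1.07 and 0.697 CPM in CTRL and 1.65, 0.795 and 2.82 CPM in ADAR+hnRNPC cells, overlapped between groups and was not called in the fit without a filter (log2 fold change 0.66, edgeR adjusted p = 0.0919).

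**Figure D2:**
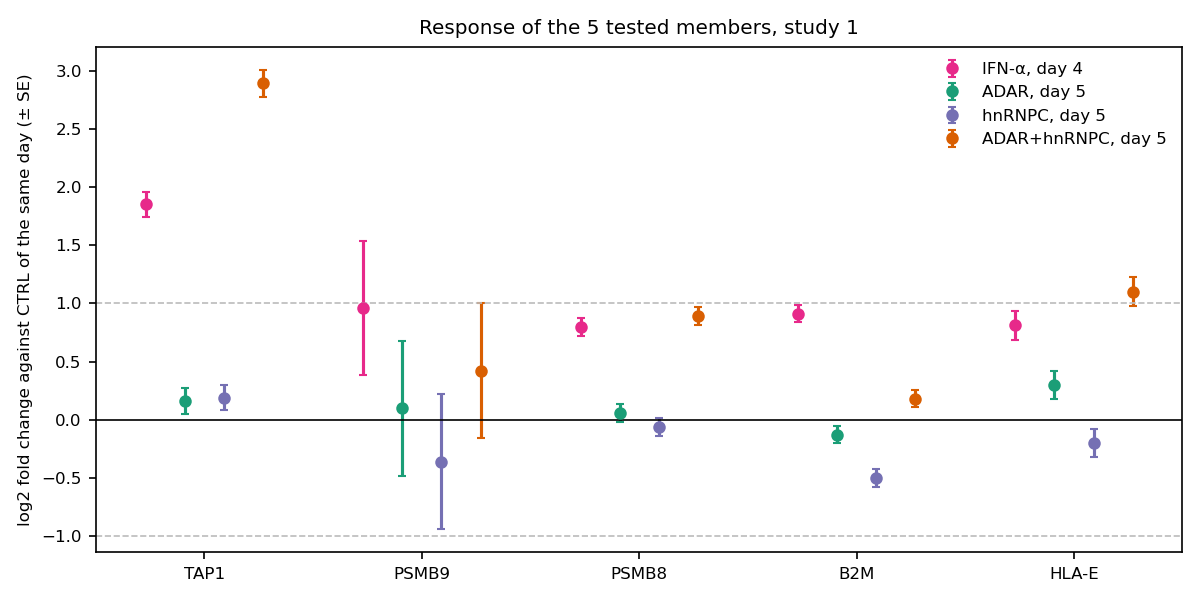
Log2 fold change against CTRL of the same day, with SE, of the 5 tested members in study 1 after IFN-α and on day 5 for each gRNA (3 libraries per group). Dashed lines mark 2-fold changes. TAP1 was at 1.85 with IFN-α and at 2.89 in ADAR+hnRNPC cells, and B2M moved 0.91 with IFN-α but 0.18 in ADAR+hnRNPC cells.

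ADAR+hnRNPC cells of day 5 were compared with IFN-α-treated cells directly, although day and treatment differ together between them. TAP1 was higher in ADAR+hnRNPC cells by 0.88 ± 0.108 on the log2 scale (edgeR adjusted p = 3.93e-09), where 39.4% of all genes were higher on the adjusted p alone. B2M was lower, with a log2 difference of -0.59 ± 0.0733 (edgeR adjusted p = 4.11e-09), where 34.7% of all genes were lower. The differences of HLA-E, 0.17 ± 0.122, and of PSMB8, 0.02 ± 0.0756, did not pass (edgeR adjusted p of 0.21 and 0.813). The 3 libraries of B2M had 1330, 1270 and 1530 CPM in ADAR+hnRNPC cells and 2010 to 2140 CPM with IFN-α and did not overlap.

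On earlier days of double targeting no tested member passed 2-fold. On day 3, 0 of 5 members were called by edgeR (1.22% of all genes), with 0 of 5 at an unadjusted p under 0.05. HLA-F, below the filter, was lower on that day, as given with the single gRNAs. On day 4, edgeR again called 0 of 5 (4.91% of all genes in either direction). TAP1 had 44.6, 47.9 and 55.8 CPM, above the 38.7 to 40.2 CPM of CTRL cells. Its log2 fold change was 0.32 ± 0.109 (edgeR adjusted p = 0.0105), and 30.3% of all genes were higher on the adjusted p alone. B2M, with 881, 948 and 890 CPM, was below the 980 to 1180 CPM of CTRL cells on day 4. Its log2 fold change was -0.28 ± 0.0732 (edgeR adjusted p = 0.0011), where 28.3% of all genes were lower. Between day 4 and day 5 the mean of TAP1 in ADAR+hnRNPC cells went from 49.4 ± 5.78 to 262 ± 73.5 CPM (SD, n = 3).

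In study 1 no tested member rose with single targeting. With ADAR gRNA, edgeR called 0 of 5 members on days 3, 4 and 5, where 0, 0.0682 and 0.296% of all genes were called in either direction, and all their log2 fold changes lay between -0.59 and 0.50. HLA-E and PSMB8 on day 4 and HLA-E on day 5 had an unadjusted p under 0.05. With hnRNPC gRNA, HLA-E was lower on day 3 (25.5 to 30 against 36.5 to 40.8 CPM in CTRL, log2 fold change -0.47 ± 0.123, edgeR adjusted p = 0.00258) and on day 4 (21.5 to 23.8 against 28.3 to 34.4 CPM, log2 fold change -0.44 ± 0.123, edgeR adjusted p = 0.00312). PSMB8 was lower on day 3 (log2 fold change -0.24 ± 0.0758, edgeR adjusted p = 0.0119). B2M was lower on day 5, with 859, 908 and 800 CPM against 1190, 1260 and 1190 CPM in CTRL (log2 fold change -0.50 ± 0.0733, edgeR adjusted p = 2.3e-07). Each of these was below the 2-fold threshold. The members lower on the adjusted p alone numbered 2 of 5 on day 3, 1 of 5 on day 4 and 1 of 5 on day 5, where 21.1, 26.8 and 31.2% of all genes were. Below the filter, HLA-F had 0.438 to 0.721 CPM in hnRNPC cells of day 3 against 0.889 to 1.51 CPM in CTRL, without overlap, and was called lower in the fit without a filter (log2 fold change -1.09, edgeR adjusted p = 0.00918). It was also called lower in ADAR+hnRNPC cells of day 3, with 0.211 to 0.783 CPM (-1.37, edgeR adjusted p = 0.000909). GFP cells of day 3, however, had 0.554 to 0.856 CPM of HLA-F, likewise below CTRL and overlapping both of these groups, at a log2 fold change of -0.73 that did not pass (unadjusted p = 0.0193, edgeR adjusted p = 1). On day 5, HLA-F was called lower in hnRNPC cells (-1.31, edgeR adjusted p = 0.00037), with 0.281 to 0.767 CPM against 0.697 to 1.56 CPM in CTRL, which overlap, and 1.02 to 1.32 CPM in GFP cells. HLA-B had 8, 8 and 20 counts in hnRNPC cells of day 5 against 40, 27 and 54 in CTRL and was called lower in that fit (log2 fold change -1.74, edgeR adjusted p = 0.0235). GFP cells of day 5 had 10, 27 and 73 counts of HLA-B, which overlap those of hnRNPC cells. GFP gRNA gave 0 of 5 calls by edgeR on each day (0.0227, 0 and 0.25% of all genes in either direction), with PSMB8 on day 4 and TAP1 on day 5 at an unadjusted p under 0.05. In CTRL cells, HLA-E (-0.42) and PSMB8 (-0.29) were lower on day 5 than on day 3 on the log2 scale, 2 of 5 members where 15.8% of all genes were (edgeR adjusted p of 0.0101 and 0.00369).

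The interaction asks whether the joint response exceeds the sum of the 2 single responses on the log2 scale. On day 5 it was 2.54 ± 0.217 for TAP1 (edgeR adjusted p = 1.43e-06), 1.01 ± 0.24 for HLA-E (0.00353), 0.89 ± 0.127 for PSMB8 (8.99e-05) and 0.82 ± 0.102 for B2M (3.19e-05). That made 4 of 5 members, where 25% of all genes had a positive interaction at this adjusted p. For B2M, the positive interaction went with a lower level in hnRNPC cells (800 to 908 CPM) and a level near that of CTRL in ADAR+hnRNPC cells (1270 to 1530 CPM). PSMB9 had an interaction of 0.68 ± 0.442 (edgeR adjusted p = 0.22), which was called without replicate 1 of hnRNPC cells (1.33) and in the fit without a filter (edgeR adjusted p = 2.63e-05). HLA-F, tested in that fit alone, had an interaction of 2.23 (edgeR adjusted p = 6.63e-09). The log2 value of PSMB9 was 0.68 in both fits despite the differing adjusted p, so this adjusted p of HLA-F is uncertain. HLA-F in ADAR+hnRNPC cells (0.795 to 2.82 CPM) overlapped CTRL (0.697 to 1.56 CPM). On day 3, edgeR gave 0 of 5 members an interaction (0% of all genes), with HLA-E and PSMB8 at an unadjusted p under 0.05, and on day 4 it gave 0 of 5 (8.4%), with PSMB8 at an unadjusted p under 0.05. With a replicate block, PSMB8 passed on day 4 with a negative interaction (-0.19, edgeR adjusted p = 0.0266).

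The regulators of the pathway, a list of 12 genes that were all tested, moved as follows. In ADAR+hnRNPC cells of day 5, 6 of 12 were called higher, where 10.8% of all genes were. Among them were the interferon-responsive factors STAT2 (log2 fold change 2.57), IRF9 (2.97), IRF1 (3.11) and IRF2 (1.98), and NLRC5 (2.01), the transactivator of class I genes. The median of the list was 1.23 on the log2 scale against 0.05 over all genes tested. IFN-α called 3 of 12 higher (1.19% of all genes), among them IRF9 at 2.58 and STAT2 at 1.71, with a median of 0.30 against 0 over all genes. IRF1 (0.53), IRF2 (0.50) and NLRC5 (0.46) were below 2-fold there. On day 4 of double targeting, 3 of 12 were called higher (3.9% of all genes), IRF9 (2.04) and IRF1 (1.10) among them, on the day when TAP1 stood at 0.32. The subunits of the RFX and NF-Y complexes, which bind class I promoters, all stayed below 2-fold, and NFYA was lower on day 5 (-0.92).

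**Figure D3:**
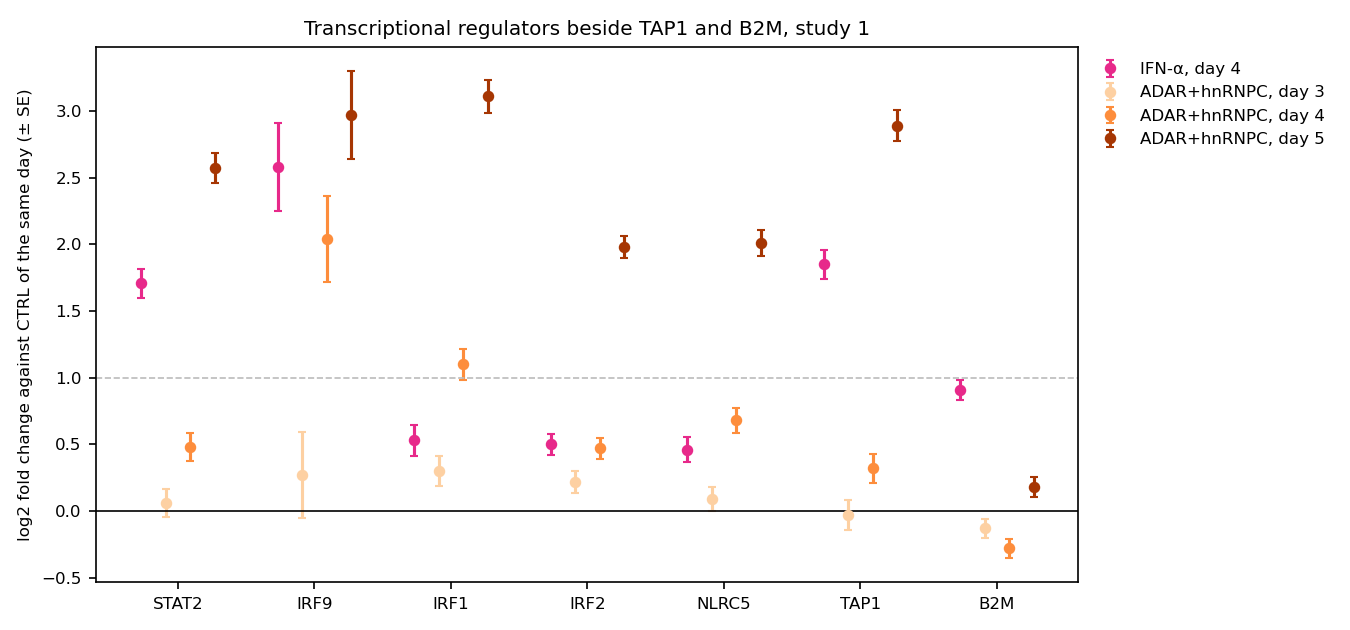
Log2 fold change against CTRL of the same day, with SE, of 5 regulators beside TAP1 and B2M in study 1 (3 libraries per group), after IFN-α and on the 3 days of double targeting. IRF1, IRF2 and NLRC5 reached 1.98 to 3.11 on day 5 of double targeting and 0.46 to 0.53 with IFN-α.

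Genes that work beside the members were counted by list. Of the 7 genes for peptide loading and trimming in the ER, ERAP2 (3.09), an aminopeptidase, and TAPBPL (1.68), a peptide editor, were called higher in ADAR+hnRNPC cells of day 5, and the chaperone CALR (-1.13) was called lower, so 2 of 7 higher and 1 of 7 lower where 10.8 and 4.66% of all genes were. The list had a median of -0.60. With IFN-α none of the 7 was called, and CALR (0.47), TAPBPL (0.51) and ERAP1 (0.37) were higher on the adjusted p alone. Of 4 partners of the immunoproteasome, PSME2, a subunit of the PA28 activator, was called higher with IFN-α (1.19), 1 of 4 where 1.19% of all genes were, whereas in ADAR+hnRNPC cells of day 5 it was at 0.58. The 3 constitutive catalytic subunits that PSMB8, PSMB9 and PSMB10 replace were higher with IFN-α (PSMB5 0.29, PSMB6 0.31, PSMB7 0.25) and lower in ADAR+hnRNPC cells of day 5 (PSMB5 -0.69, PSMB6 -0.40, PSMB7 -0.24), all below 2-fold and past the adjusted p (10.9% of all genes were higher with IFN-α and 34.2% lower in ADAR+hnRNPC cells on the adjusted p alone). Among 9 class I-like genes, HFE (2.10), ULBP1 (1.43), a ligand of the NKG2D receptor, and the lipid-presenting CD1D (1.38) were called higher in ADAR+hnRNPC cells of day 5, 3 of 9 where 10.8% of all genes were, and none was called with IFN-α.

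Over the 16 group means of study 1, the tested members followed each other with Pearson's r between 0.574 (HLA-E and PSMB9) and 0.921 (HLA-E and PSMB8). TAP1 and B2M had an r of 0.673. The genes most like TAP1 by this measure were SHFL (0.991), GTPBP1 (0.989) and STAT2 (0.987), while those most like B2M were IGSF1 (0.98), GNB4 (0.945) and PSME1 (0.94). The mean of all 9 members was most like MRPL40 (0.966), ERFE (0.957) and RUFY4 (0.953). These values describe 16 means that share the CTRL baseline and the 2 stimulated groups.

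Intronic reads, a readout separate from the exon counts, could be followed for B2M alone. Of 55 introns assigned to a single member, 2 passed the filter (an average log2 CPM of 1), both in B2M, and the 10 of TAP1 could not be assigned because they lie in the interval of PSMB9. The intron at chr15:45003812-45007620 had 9.26, 6.36 and 6.97 CPM in CTRL of day 4 and 20.1, 15.8 and 9.78 CPM with IFN-α, so that the lowest treated library was close to the highest CTRL library. Its log2 fold change was 1.02 ± 0.246 (edgeR adjusted p = 0.0141). The intron at chr15:45009228-45009804 had 3.82, 3.58 and 3.95 CPM against 8.01, 7.27 and 7.77 CPM, without overlap, and a log2 fold change of 1.02 ± 0.162 (edgeR adjusted p = 3.46e-05). Both were thus called higher with IFN-α, where 0.791% of all introns were, but both values lay just past the 2-fold threshold and no intron was called with library totals alone, without replicate 2 of CTRL or without replicate 1 of IFN-α-treated cells (1 without replicate 3 of CTRL or replicate 2 of treated cells). In ADAR+hnRNPC cells of day 5, the first intron rose by 1.17 ± 0.246 (7.73, 6.93 and 9.8 CPM in CTRL, 16.5, 17.4 and 21.1 CPM in ADAR+hnRNPC cells, edgeR adjusted p = 0.000191), where 6.3% of all introns were called higher. The second was at 0.79 ± 0.161, below 2-fold. In these cells the exon count of B2M was at 0.18. Neither intron was called by edgeR in ADAR (0% of all introns in either direction) or in hnRNPC cells (6.5%) of day 5, and none had an unadjusted p under 0.05 there.

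Few of the A-to-I sites listed by the authors lay inside the members. In study 1, 17 of 475962 listed A-to-I sites lay in HLA-E, with 43 edited among 18454 reads over all libraries (0.233%). A further 4 sites lay in B2M on the strand opposite to the gene, with 31 edited of 4421 reads (0.701%). The remaining 7 members had none, no member had a site in study 2 (318767 listed sites), and no editing-cluster-rich region of either study (2875 and 2794) overlapped a member. Sites listed on the alternate MHC haplotypes were not assigned to members, and neither were the 11 regions of study 1 listed there (0 in study 2). These shares pool all libraries and were not compared between gRNAs or with an error rate.

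Study 2 asks where in the cell the RNA was found. In cytosolic against total RNA over the 4 gRNA groups, TAP1 (-1.65 ± 0.109), B2M (-1.59 ± 0.0789) and HLA-E (-1.06 ± 0.0793) were called lower on the log2 scale (edgeR adjusted p of 5.24e-09, 2.36e-10 and 2.15e-08). That made 3 of 5 members, where 10.3% of all genes were called lower. PSMB8 was at -0.09 ± 0.0746, and PSMB9 at 0.39 ± 0.0838 passed the adjusted p in the other direction, below 2-fold. The 3 depleted members encode proteins made at the ER, and PSMB8 and PSMB9 encode soluble proteasome subunits. CPM are relative to each library, so a lower value in the cytosolic libraries gives a lower share of their RNA and not a number of molecules.

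In CTRL cells, B2M had 1100 and 868 CPM in total and 214 and 199 CPM in cytosolic RNA, and TAP1 had 66.9 and 52.8 CPM in total and 10.7 and 13.4 CPM in cytosolic RNA. PSMB8, by contrast, had 177 and 142 CPM in total and 176 and 158 CPM in cytosolic RNA. Within CTRL cells, TAP1 (-2.31), B2M (-2.25) and HLA-E (-1.85) were called lower in the cytosol (3 of 5 members, 12.6% of all genes), and likewise within hnRNPC cells (-2.24, -2.41 and -1.96, where 12% of all genes were). Against nuclear RNA of hnRNPC cells, the log2 differences were -2.74 for both TAP1 and B2M and -2.65 for HLA-E (3 of 5 members, 18.5% of all genes), and PSMB8 was at 0.02. HLA-B and HLA-C, below the filter, went the same way in the fit without one, with -2.17 and -2.79 in cytosolic against total RNA (edgeR adjusted p of 4.46e-18 and 2.94e-20).

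With ADAR gRNA the depletion was smaller. Within ADAR cells, TAP1 (-1.27) and B2M (-1.05) were called lower in the cytosol and HLA-E was at -0.69 (2 of 5 members, 8.02% of all genes), HLA-C was called in the fit without a filter (-2.88, edgeR adjusted p = 3.94e-06), and within ADAR+hnRNPC cells 0 of 5 were called by edgeR (9.08%), with TAP1 at -0.77, B2M at -0.63 and PSMB9 at 0.91, which passed the adjusted p below 2-fold, and HLA-E at 0.27. Without replicate 2 of cytosolic RNA of ADAR cells, B2M in these cells was at -0.90, below 2-fold. In ADAR+hnRNPC cells, TAP1 was called at -1.16 without replicate 1 of cytosolic RNA and PSMB9 at 1.10 without replicate 2 of total RNA.

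Seen from the gRNA, HLA-E, TAP1 and B2M made up a larger share of cytosolic RNA in ADAR than in CTRL cells. Other genes that act in the ER moved likewise, and the fractions themselves differed between gRNAs, as given below. The part of the fractionation in these values was not tested. HLA-E had 10.7 and 9.27 CPM in CTRL and 32.9 and 29.4 CPM in ADAR cells (log2 fold change 1.64 ± 0.162, edgeR adjusted p = 7.63e-06). TAP1 went from 10.7 and 13.4 to 39.4 and 33.9 CPM (1.60 ± 0.221, edgeR adjusted p = 0.000128) and B2M from 214 and 199 to 569 and 458 CPM (1.31 ± 0.157, edgeR adjusted p = 3.95e-05). No groups overlapped, and 3 of 5 members were called higher, where 4.34% of all genes were. PSMB8, with 176 and 158 against 172 and 173 CPM, overlapped. HLA-B, below the filter, had 7 and 9 counts in CTRL and 21 and 31 counts in ADAR cells and was called in the fit without one (log2 fold change 1.65, edgeR adjusted p = 0.0171). In total RNA of the same gRNA group edgeR called 0 of 5 members (2.81% of all genes in either direction), with TAP1 at 0.56, HLA-E at 0.47, PSMB9 at 0.48 and B2M at 0.11. The first 3 had an unadjusted p under 0.05.

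In ADAR+hnRNPC cells, TAP1, B2M and HLA-E were called higher in the cytosol too. TAP1 had 73.8 and 45.9 CPM (log2 fold change against CTRL 2.31 ± 0.225, edgeR adjusted p = 2.89e-06), B2M 634 and 559 CPM (1.53 ± 0.158, 4.93e-06) and HLA-E 29.2 and 25.1 CPM (1.44 ± 0.161, 1.04e-05), 3 of 5 members where 7.02% of all genes were called higher. In total RNA edgeR called 0 of the 5 tested members (4.5% of all genes in either direction). TAP1 was higher there by 0.77 ± 0.212 (119 and 85.5 against 66.9 and 52.8 CPM in CTRL, edgeR adjusted p = 0.0118, 17.1% of all genes on the adjusted p alone). HLA-E was lower, at -0.68 ± 0.157 (25.7 and 19.4 against 41.2 and 31 CPM, edgeR adjusted p = 0.00441, 17.2% of all genes). HLA-C, below the filter, had 14 and 21 counts (0.259 and 0.4 CPM) against 36 and 101 (0.555 and 1.94 CPM) in CTRL and was called lower in the fit without one (-1.90, edgeR adjusted p = 0.00148). The direction of HLA-E in total RNA was thus opposite to that in the cytosol of the same cells. With hnRNPC gRNA alone, edgeR called 0 of 5 members in total (0.637% of all genes in either direction) and 0 of 5 in cytosolic RNA (0.418%), and none had an unadjusted p under 0.05. HLA-C was called lower in total RNA of these cells in the fit without a filter (25 and 37 counts, log2 fold change -1.44, edgeR adjusted p = 0.0416).

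The difference between the 2 compartments in the response to a gRNA was tested itself, a comparison added after the data had been seen. For ADAR targeting it was 1.21 ± 0.219 for B2M (edgeR adjusted p = 0.00979) and 1.17 ± 0.222 for HLA-E (0.0122), 2 of 5 members where 2.27% of all genes were higher. TAP1 at 1.04 ± 0.303 did not pass (0.101), but it passed with a replicate block (1.01, edgeR adjusted p = 0.0471), with DESeq2 (1.05, DESeq2 adjusted p = 0.0162) and in the fit without a filter (edgeR adjusted p = 1.07e-06). These calls were fragile: B2M was lost without replicate 2 of total or replicate 1 of cytosolic RNA of ADAR cells (edgeR adjusted p of 0.058 and 0.062), and HLA-E was lost without replicate 1 of either or without replicate 2 of cytosolic CTRL RNA (0.0649, 0.0681 and 0.0584). For double targeting it was 2.12 ± 0.225 for HLA-E (edgeR adjusted p = 0.000107), 1.62 ± 0.219 for B2M (0.000741) and 1.54 ± 0.303 for TAP1 (0.00852), 3 of 5 members where 3.93% of all genes were higher. TAP1 was lost without replicate 2 of total ADAR+hnRNPC RNA or replicate 1 of cytosolic CTRL RNA (edgeR adjusted p of 0.0553 and 0.0576). For hnRNPC targeting edgeR called 0 of 5 (0% of all genes in either direction), with none at an unadjusted p under 0.05. PSMB8 and PSMB9 were called in none of these 3 responses.

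**Figure D4:**
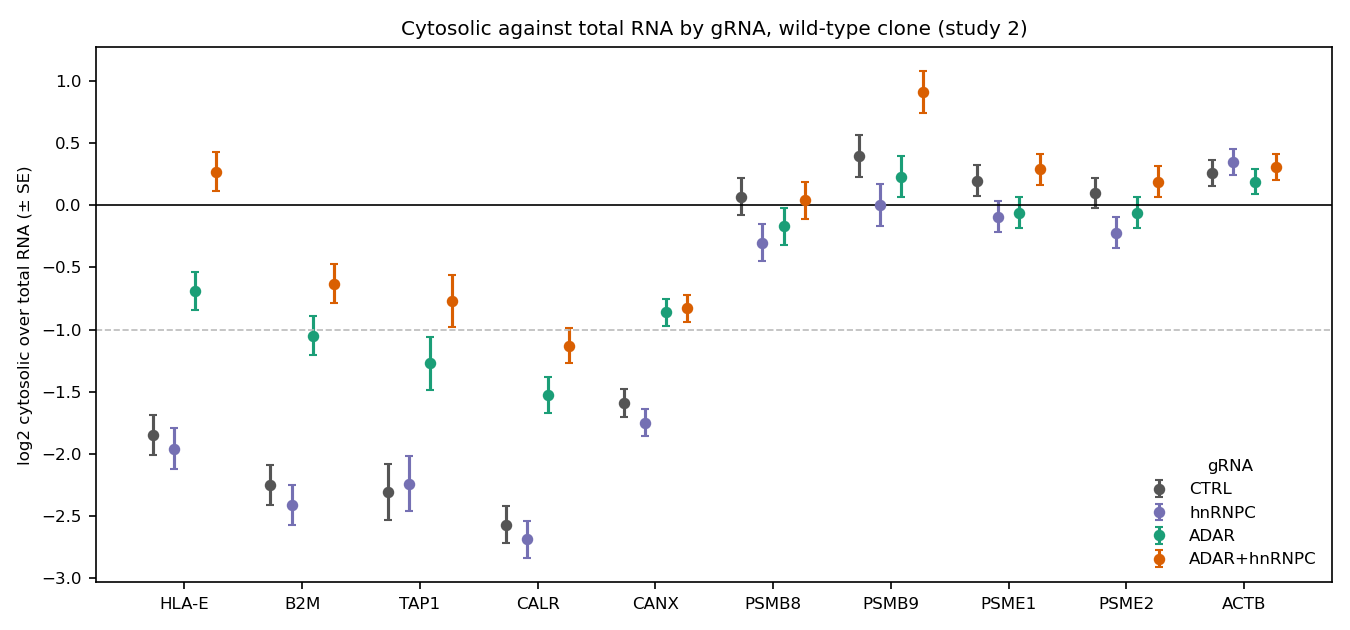
Log2 of cytosolic over total RNA, with SE, in CTRL, hnRNPC, ADAR and ADAR+hnRNPC cells of study 2 (2 libraries per group and compartment) for the 5 tested members and 5 other genes. HLA-E, B2M, TAP1, CALR and CANX lay between -2.69 and -1.59 in CTRL and hnRNPC cells and higher with ADAR gRNA, whereas PSMB8, PSMB9, PSME1, PSME2 and ACTB stayed at -0.30 or above in all groups.

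Other genes of the pathway were counted by list. All 7 genes of peptide loading and trimming, which act in the ER, were called lower in the cytosol of CTRL cells, where 12.6% of all genes were (median -2.29 against 0.02 over all genes). Within ADAR cells 2 of 7 were, against 8.02% of all genes. Their response to ADAR targeting was higher in cytosolic than in total RNA for 5 of 7, PDIA3 (1.46), CALR (1.04), CANX (0.73), TAPBP (2.43) and TAPBPL (1.59), all past an edgeR adjusted p of 0.05. Of all genes, 2.27% were higher in this response. CALR, for example, was at 1.15 in the cytosol and 0.12 in total RNA of ADAR cells. None of the 4 proteasome partners and 3 constitutive subunits was called in these contrasts. The tested monocytic markers, many of which are secreted or membrane proteins, moved too, with 2 of 7 higher in the response to ADAR targeting (2.27% of all genes), at a median of 0.68. Beside this, the compartments themselves differed between gRNAs. MT-ND1, a mitochondrial transcript, was at -5.91 in cytosolic against total RNA of CTRL, -4.25 of hnRNPC, -4.26 of ADAR and -6.10 of ADAR+hnRNPC cells, the nuclear transcript MALAT1 was at -1.47, -0.57, -0.84 and -2.57, and ACTB at 0.26, 0.35, 0.19 and 0.31. In total RNA, MT-ND1 (-1.64) and MALAT1 (-1.27) were called lower in ADAR than in CTRL cells (edgeR adjusted p of 0.0492 and 0.0267). The part of the fractionation in the values of the 3 members was not tested.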

How the data were processed

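RNA from THP-1 cells, an established line, was depleted of ribosomal RNA, made into stranded libraries and sequenced in pairs. The authors deposited raw counts: per the submitters' processing notes and the methods of the study, reads were aligned to GRCh37 with STAR 2.5.4a, and uniquely mapped reads (quality 255) were counted over GENCODE exons, and in study 1 also over introns, with featureCounts (version and strand setting not given in the sources used here). No replicates were pooled. Depth is given in the results. Intervals of genes are from a newer GENCODE release mapped to GRCh37.

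Here, genes with an average log2 CPM of at least 0.5 (introns, 1) were tested with edgeR 4.0.16 in R 4.3.3: TMM normalization, quasi-likelihood test, 1 coefficient per group over all libraries of a study, and Benjamini-Hochberg adjustment over all features tested. Calls needed a 2-fold change in either direction and an adjusted p of at most 0.05. Interactions were fitted within the 12 libraries of 1 day, and these and the cytosolic-minus-total responses were called on the adjusted p alone. Named genes are the 9 members, the targeted genes, and those of fixed pathway lists that were called or lay at the ends of their list, and some of these are not reported here. Genes most like a member were ranked by Pearson's r over group means. The members and lists were chosen with earlier results of these data known. The fits within a gRNA group and the cytosolic-minus-total responses were added after the data had been seen. The tests were tested on simulated data, and no replicates of a group agreed within sampling noise. Alternatives were DESeq2 1.42.0, limma-voom (limma 3.58.1), RLE factors, library totals alone, no filter, no fold threshold, GFP cells as control, a replicate block, and leaving out each replicate.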

Additional observations from a re-analysis of the deposited data

Results flagged for a closer look

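These values were singled out because the response of a gene differed between groups by a test of the difference itself (edgeR, adjusted over all genes). On day 5 of study 1, the response to joint targeting exceeded the sum of the single responses on the log2 scale by 2.54 for TAP1, 1.01 for HLA-E, 0.89 for PSMB8 and 0.82 for B2M (edgeR adjusted p of 1.43e-06, 0.00353, 8.99e-05 and 3.19e-05). In study 2, the response to ADAR targeting was larger in cytosolic than in total RNA by 1.21 for B2M and 1.17 for HLA-E (edgeR adjusted p of 0.00979 and 0.0122). The response to double targeting was larger in cytosolic RNA by 2.12 for HLA-E, 1.62 for B2M and 1.54 for TAP1 (edgeR adjusted p of 0.000107, 0.000741 and 0.00852). The fractions themselves differed between gRNAs, and the part of this in the values of study 2 was not tested.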

How the results depend on the processing

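No value reversed its direction. Single values kept their side of the threshold in 164 of 165 cases with DESeq2, in 165 of 165 each with RLE factors, limma-voom and library totals alone, and in 1037 of 1050 with 1 replicate left out. Counts of members called changed most with the fold threshold and the filter. Without a fold threshold, calls numbered 4 with IFN-α, 2, 1 and 1 with hnRNPC gRNA on days 3, 4 and 5, 2 and 4 with double targeting on days 4 and 5, 2 for ADAR+hnRNPC cells of day 5 against IFN-α, 2 for CTRL day 5 against day 3, 2 for double targeting in total RNA, 3 for cytosolic against total RNA of ADAR+hnRNPC cells, and 2 introns for double targeting. On the adjusted p alone, 18.9% of all genes were higher and 25.7% lower in cytosolic against total RNA of ADAR+hnRNPC cells. With double targeting on day 5, 15.9% of all introns were higher and 28.4% lower. Without the filter all 9 members were tested, and calls numbered 2 with IFN-α, 1 and 2 with hnRNPC gRNA on days 3 and 5, 1 with double targeting on day 3, 1 each with hnRNPC gRNA and double targeting in total RNA, 6 for the interaction of day 5, 4 with ADAR gRNA in cytosolic RNA, 5 for cytosolic against total RNA (6 in CTRL, 6 in hnRNPC, 3 in ADAR and 1 in ADAR+hnRNPC cells), 3 for the cytosolic-minus-total response to ADAR targeting, 7 for cytosolic against nuclear RNA, and 5 and 6 introns with IFN-α and double targeting. Shares over all genes or introns are not given for the fits without the filter, so these counts have no background beside them. With GFP cells as control, double targeting on day 5 gave 1 call and the interaction of day 4 gave 2. Introns with IFN-α gave 1 call with limma-voom and 0 with library totals alone. With a replicate block the interaction of day 4 gave 1 call (PSMB8, edgeR adjusted p = 0.0266) and the response of TAP1 to ADAR targeting passed (0.0471). The sources used here do not say that a replicate number marks 1 shared experiment, so the numbers were not taken to pair samples. Of same-numbered pairs of studies 1 and 2, 233 of 360 and 44 of 72 correlated above 0.1. Their median r was 0.185 and 0.174, and in study 1 that of pairs with other numbers was -0.0905. Since 40 of 48 and 16 of 18 libraries correlated best with their own number, the data hint that the numbers may mark shared experiments. The main fits leave such a pairing out. The cause of these changes was not tested. Without the filter, the edgeR adjusted p fell at the same log2 value for 2 results. It went from 0.22 to 2.63e-05 for the day 5 interaction of PSMB9. For the cytosolic-minus-total response of TAP1 to ADAR targeting it went from 0.101 to 1.07e-06. Calls that rest on the fit without a filter alone are therefore uncertain.

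With 1 replicate left out, calls ranged from 1 to 2 for double targeting on day 5, from 1 to 2 and from 0 to 1 for cytosolic against total RNA of ADAR and ADAR+hnRNPC cells, from 0 to 2 for the cytosolic-minus-total response to ADAR targeting, and from 0 to 2 for introns with IFN-α. Where this left 1 library in a group, that library was assumed to vary like the other groups. HLA-B, HLA-C and TAP2 had few counts, for a cause that was not tested. Their changes are therefore imprecise and, in many comparisons, undetectable. Unique mapping makes the counts of all chromosome 6 members lower limits.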
